A study of Mus musculus with 4 samples.

Results

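The 53 genes described here encode the semaphorins, plexins, neuropilins, Eph receptors and ephrins of the mouse. They were chosen by gene symbol alone among the 19465 features of a probe panel, and every gene whose symbol fitted was kept. They comprise 20 semaphorins, 9 plexins, 2 neuropilins, 9 EphA receptors, 5 EphB receptors, 5 ephrin-A and 3 ephrin-B genes, that is, 28 ligands and 25 receptors. Their RNA was measured by Visium for formalin-fixed paraffin-embedded (FFPE) tissue, in which pairs of probes ligated on the RNA are counted as unique molecular identifiers (UMIs) at each spot of a slide. The tissue was coronal brain of wild-type C57BL/6J offspring at postnatal day 21, and the study states that the pups were male. Dams aged 8 weeks, by the labels (the study's methods give a range of ages from 8 weeks upward), received a diet with 2 mg/kg folic acid (FA), the MF group, or 20 mg/kg FA, the HF group, for 2 weeks before mating and then through pregnancy and lactation. Each group had 2 sections, which the study describes as biological replicates. The labels do not tie pups to litters, so the p-values below concern these sections alone. Those of the comparison of diets cover the spread between sections of a diet. Those of areas and of region by diet come from fits that take out differences between whole sections. They cover the spread that remains among the areas or regions of the sections.

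Semaphorins are secreted or membrane-bound ligands. Plexins are their receptors, and the secreted class 3 semaphorins mostly bind through neuropilins, which pass the signal to A-type plexins. Eph receptors are receptor tyrosine kinases, and ephrins are their ligands on the surface of neighbouring cells, ephrin-A proteins being held by a lipid anchor and ephrin-B proteins by a transmembrane segment. Both systems are known for steering growing axons in the embryo, and in the postnatal brain they are also known for roles in synapse formation, dendritic spines, myelination and blood vessels.

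The sections held 3202 to 3602 spots, and 13452 of 13470 spots passed the filters of 500 UMIs and 250 genes. Totals were unequal, with 90098381 UMIs in MF replicate 1 and 34983708 to 42507273 in the other sections. All 53 genes were detected in every section. Spots were clustered on the remaining genes, without the guidance genes and their pathway, into 27 areas, and 25 areas with at least 15 spots in every section were compared. These include cortex (CTX) layers, white matter (WM), striatum (STR), the CA1, CA2-3 and dentate gyrus (DG) areas and the neuropil of the hippocampus (HP), areas of the hypothalamus (HY) and thalamus (TH), habenula (HB), ependyma (EPD), choroid plexus (CHP) and meninges (MEN). They were named from marker genes, for example Fibcd1 and Wfs1 leading the CA1 area, C1ql2 and Prox1 the DG area, Prkcd and Tcf7l2 the thalamic relay area and Mal and Gsn the white matter. An area that no marker list named is called by 2 of its leading genes. The choroid plexus area was led by Ttr and Folr1 together with Tac2, Chrna3 and Pou4f1 of the medial habenula, so it mixed both tissues. A spot covers several cells, so fewer cells of a type in an area and less RNA per cell cannot be told apart.

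Levels are given as CPM, the UMIs of a gene over all spots of an area in one section after scaling to a common total. Each gene was read by its own probes, so levels of different genes are not compared with each other. An area was called for a gene where its level stood at least 2-fold above the mean of the other areas with an adjusted p under 0.05 in the quasi-likelihood test of edgeR, Benjamini-Hochberg adjusted over all 12593 features tested, with section as a block. Of the 51 guidance genes tested, 40 were called in at least 1 area, or 78.4%, whereas 35.2% of all features tested were called in at least 1 area. The ephrin-A gene Efna4 and the EphB receptor Ephb2 were too low to be tested. The 40 genes gave 101 calls, with 12 genes called in 1 area, 28 in 2 or more and at most 6 areas for any gene. All 9 EphA receptors were called, as were 4 of 4 EphB receptors tested, both neuropilins, 6 of 9 plexins, 3 of 4 ephrin-A genes tested, 2 of 3 ephrin-B genes and 14 of 20 semaphorins. For 25 of the 53 genes the area with the highest level was the same in all 4 sections.

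The calls were spread unevenly over the section. The CA1 and CA2-3 areas were each called for 11 guidance genes (21.6% of those tested), against 4.26% and 4.1% of all features. The DG area was called for 9 (17.6%, all features 3.86%), the white matter for 8 (15.7%, all features 4.84%) and the choroid plexus area also for 8 (15.7%, all features 10.1%). Layer 4 of the cortex was called for 6 (11.8%, all features 2.49%), as was the area led by Lmo3 and Slc30a3 (11.8%, all features 1.57%). The meninges and the ependyma were called for 5 each (9.8%), near their shares of all features (7.92% and 8.3%). In at least 1 hippocampal area 11 receptors and 7 ligands were called, and in the white matter 5 ligands and 3 receptors. The lists hold 25 receptors and 28 ligands, of which Ephb2 and Efna4 were not tested. The share of all features called in at least 1 hippocampal area was not counted. Whether receptors and ligands differed between these places was not tested. Layers 2-3 and the thalamic reticular area were called for 4 each (7.84%, all features 2.61% and 3.67%), and the thalamic relay area, the striatum and the cortical area led by Trbc2 and Nxph3 for 3 each (5.88%, all features 2.91%, 2.1% and 1.7%). Layer 5, the midline thalamus, the habenula and the cortical areas led by Tshz2 and Lamp5 and by Ccn2 and Nr4a2 were called for 2 each (3.92%, all features 1.37%, 3.88%, 3.08%, 1.83% and 1.48%). The areas led by Cyp26b1 and Lypd1 and by Reln and Ndnf were called for 1 each (1.96%, all features 1.63% and 1.99%). No guidance gene was called in the hippocampal neuropil (all features 1.21%) or the lateral hypothalamus (all features 3.64%). The calls in the remaining compared areas are not reported here.

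A measure that uses no clusters also described how the genes were spread. Moran's I, a score of how far neighbouring spots resemble each other that was deposited for each section, had medians over the guidance genes of 0.0996 and 0.0568 in MF and 0.0733 and 0.0695 in HF. The medians over all features were 0.01662, 0.0113, 0.01462 and 0.01042 in the same order. The features behind these medians and the percentiles below include all detected ones and were not matched to the guidance genes in level. In all 4 sections 16 guidance genes lay above the 90th percentile and 5 above the 95th, namely Epha4 (mean I of 0.301), Sema7a (0.2995), Efnb3 (0.265), Sema6a (0.255) and Nrp2 (0.214). The deepest section had the highest median, so the score is not compared between sections.

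**Figure D1:**
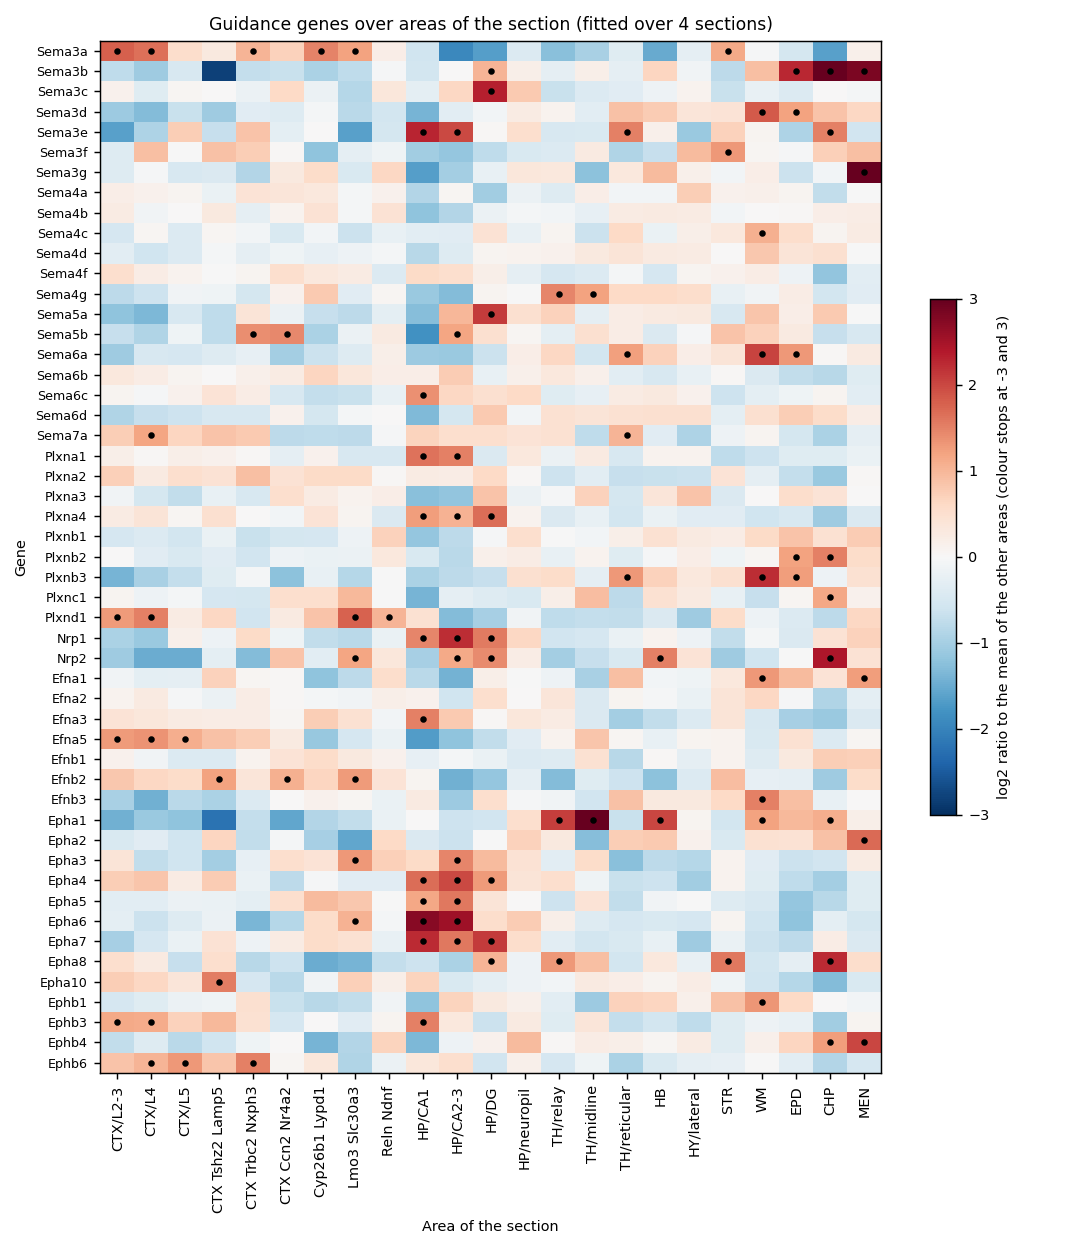
Level of the 51 tested guidance genes (rows, by family) in the areas described here (columns), as the log2 ratio of an area to the mean of the other areas, fitted over 4 sections; red is higher, blue lower, and a black dot marks a call. The CA1 and CA2-3 columns hold 11 dots each, with EphA receptors among them, and the WM column holds Sema6a and Plxnb3.

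Epha3, Epha4, Epha5, Epha6 and Epha7 were highest in the cell layers of the hippocampus. Epha4, which binds both ephrin-A and ephrin-B ligands, reached 707 and 806 CPM in the CA2-3 area of the MF sections, and HF sections stood at 787 and 763 CPM. Its mean there was 766 ± 42.9 CPM (SD, n = 4 sections), a log2 ratio to the other areas of 1.99 (SE 0.06, adjusted p = 3.59e-57, edgeR quasi-likelihood test), and it was called in the CA1 area (654 CPM, 1.69) and the DG area (566 CPM, 1.29) too. The lowest mean of Epha4 was 118 CPM, in the choroid plexus area. In every section the CA2-3 level of Epha4 lay above its CA1 level.

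Epha6 was at 485 and 562 CPM in the CA1 area of the MF sections, and HF sections stood at 553 and 549 CPM, with a log2 ratio of 2.73 (SE 0.07). In the CA2-3 area it was at 432 to 463 CPM (2.55, SE 0.07), so both pyramidal layers were high in all 4 sections. Epha7 was at 308 and 399 CPM in the DG area of the MF sections and at 408 and 489 CPM in that of the HF sections.

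The log2 ratio of Epha7 was 2.09 (SE 0.06) in the DG area and 2.24 (SE 0.08) in the CA1 area, where it was at 327 to 443 CPM. The order of these areas for Epha7 was not the same in every section, since MF replicates 1 and 2 were higher in CA1 and both HF sections in DG. Epha5 was highest in the CA2-3 area, at 288, 294, 283 and 311 CPM (log2 ratio 1.58, SE 0.07), and Epha3, at a low level, was at 18.3 to 33.1 CPM there (1.47, SE 0.20) and at 15.5 to 24.8 CPM in the Lmo3 and Slc30a3 area (1.29, SE 0.14).

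The sequences before the start sites of the 4 EphA receptors called in the CA1 area, and of Plxnb3, the plexin called in the white matter, are shown so that genes sharing an area can be read side by side. The windows are the 250 bases before the annotated start, from RefSeq on GRCm38.p6, written 5′ to 3′ on the strand of the gene, at chr1:77515089-77515338 on the minus strand (Epha4), chr5:84417383-84417632 on the minus strand (Epha5), chr16:60605532-60605781 on the minus strand (Epha6), chr4:28812881-28813130 on the plus strand (Epha7, the first of 2 starts listed) and chrX:73756853-73757102 on the plus strand (Plxnb3). Capitals mark the GC box GGGCGG, the E-box CAGATG read by neurogenic bHLH factors and the Sox motif ACAAAG, each on either strand, and no 2 marked matches overlap.
Epha4 promoter: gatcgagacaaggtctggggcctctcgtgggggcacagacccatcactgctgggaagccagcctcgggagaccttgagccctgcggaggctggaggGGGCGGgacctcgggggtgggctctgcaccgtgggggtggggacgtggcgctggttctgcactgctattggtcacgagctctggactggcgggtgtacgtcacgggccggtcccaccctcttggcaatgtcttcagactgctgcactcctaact
Epha5 promoter: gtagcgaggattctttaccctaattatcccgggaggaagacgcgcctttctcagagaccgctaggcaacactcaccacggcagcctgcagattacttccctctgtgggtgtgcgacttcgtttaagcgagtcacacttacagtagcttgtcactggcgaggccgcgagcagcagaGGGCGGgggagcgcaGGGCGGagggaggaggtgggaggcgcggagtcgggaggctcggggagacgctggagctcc
Epha6 promoter: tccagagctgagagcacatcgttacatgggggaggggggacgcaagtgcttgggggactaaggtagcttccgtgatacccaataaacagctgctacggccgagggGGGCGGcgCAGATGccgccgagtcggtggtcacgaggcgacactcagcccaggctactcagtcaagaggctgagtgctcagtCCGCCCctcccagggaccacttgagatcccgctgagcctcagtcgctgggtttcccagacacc
Epha7 promoter: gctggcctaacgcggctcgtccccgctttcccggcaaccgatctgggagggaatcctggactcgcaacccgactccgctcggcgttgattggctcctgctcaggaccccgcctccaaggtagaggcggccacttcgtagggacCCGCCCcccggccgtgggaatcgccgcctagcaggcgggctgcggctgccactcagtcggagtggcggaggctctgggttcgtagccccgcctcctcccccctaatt
Plxnb3 promoter: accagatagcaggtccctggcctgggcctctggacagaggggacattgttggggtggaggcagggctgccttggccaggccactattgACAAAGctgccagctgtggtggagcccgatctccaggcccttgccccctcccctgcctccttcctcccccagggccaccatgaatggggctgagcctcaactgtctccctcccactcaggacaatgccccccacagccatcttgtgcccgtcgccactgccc

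Windows were found for 47 of the 53 guidance genes and for 15061 assayed genes. The GC box stood in 36 of 47 guidance windows (76.6%), in 46.3% of the windows of assayed genes and in 32.7% of all 32851 windows. The median GC content was 64.4% in guidance windows, 56.4% in those of assayed genes and 52.4% in all, so GC content was higher where the GC box was more frequent. The E-box stood in 4 guidance windows (8.51%; assayed genes 12.1%), among them Epha6, and the Sox motif in 6 (12.8%; assayed genes 14.5%), among them Plxnb3. TATAAA stood in 1 (2.13%; assayed genes 11.4%), that of Efnb2. These matches describe letters in a window and were not tested as binding sites.

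The remaining EphA receptors were highest outside the hippocampal layers. Epha1 was highest in the thalamus, with 20.9 and 25.9 CPM in the midline thalamic area of the MF sections, and HF sections stood at 42.7 and 26.6 CPM (log2 ratio 4.42, SE 0.29, 25 to 49 spots per section). In the thalamic relay area Epha1 was at 4.02 to 7.38 CPM (2.07, SE 0.19), and it was also called in the habenula (2.00, SE 0.47) from 0 to 9.01 CPM. Epha8 was highest in the choroid plexus area, at 33.0, 51.0, 33.2 and 29.4 CPM (2.23, SE 0.18), then in the striatum at 18.8 to 33.4 CPM (1.59, SE 0.17) and in the thalamic relay area at 12.9 to 29.2 CPM (1.30, SE 0.10). It was called in the DG area too, at 9.45 to 18.3 CPM (1.01, SE 0.18). Epha10, which lacks kinase activity, was highest in the cortical area led by Tshz2 and Lamp5, at 109, 120, 108 and 138 CPM (1.54, SE 0.10). Epha2 was at 5.20 to 12.2 CPM in the meninges (1.69, SE 0.30).

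**Figure D2:**
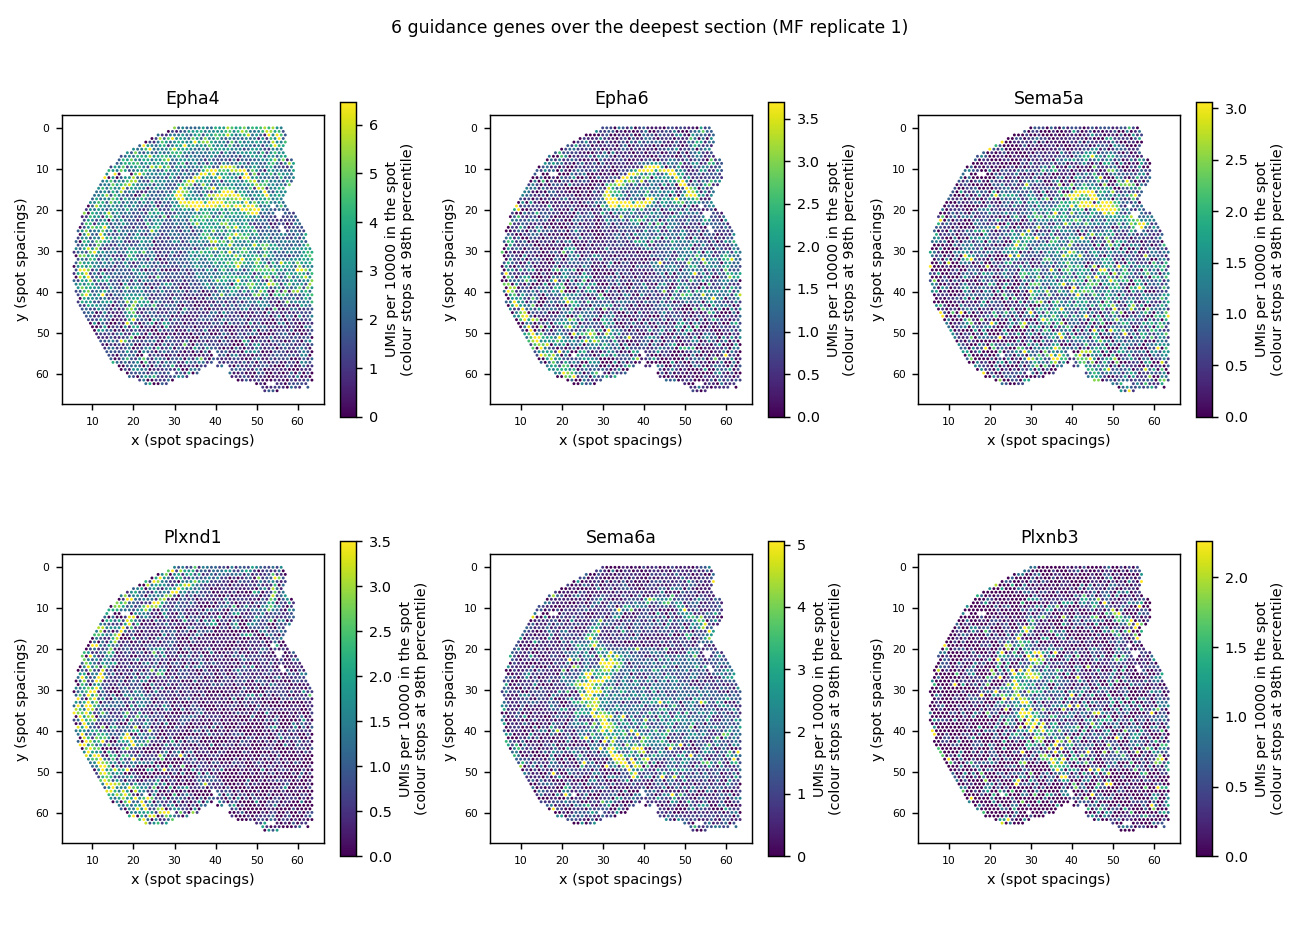
Level of 6 guidance genes at each spot of MF replicate 1, the deepest section, as UMIs per 10000 UMIs of the spot, with x and y in spot spacings; yellow is high and the colour stops at the 98th percentile of the section. Epha4 and Epha6 outline the hippocampal layers, Sema5a the dentate gyrus, Plxnd1 the upper cortex, and Sema6a and Plxnb3 the fibre tracts.

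The EphB receptors were highest in white matter, cortex, hippocampus and meninges. Ephb1 was highest in the white matter, at 142, 173, 171 and 178 CPM (log2 ratio 1.32, SE 0.06). Ephb6, a receptor without kinase activity, was highest in the cortical area led by Trbc2 and Nxph3, at 164, 187, 194 and 186 CPM (1.52, SE 0.05), and was called in layer 5 as well (148 to 164 CPM; 1.30, SE 0.05). Ephb3 was at 53.9 to 93.4 CPM in the CA1 area (1.51, SE 0.14) and was called in layers 2-3 and 4. Ephb4, a receptor known from venous endothelium, was at 13.9 to 25.6 CPM in the meninges (2.01, SE 0.20) and at 5.66 to 19.9 CPM in the choroid plexus area (1.25, SE 0.25).

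Among the ligands of these receptors, Efnb3, known as a barrier to crossing axons at the midline, was at 355, 407, 365 and 324 CPM in the white matter (log2 ratio 1.51, SE 0.05), and its lowest mean was 50.5 CPM, in layer 4 of the cortex. The 4 white matter values of Efnb3 did not overlap with those of layer 4. Efna5, known for mapping sensory projections, was highest in layer 4, at 97.2, 94.3, 105 and 104 CPM (1.34, SE 0.07), and in layers 2-3 at 81.1 to 121 CPM (1.27, SE 0.08). These 2 layers overlapped in Efna5, whose lowest mean was 10.99 CPM in the CA1 area, where 4 EphA receptors were called.

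Efna3 was highest in the CA1 area, at 127, 136, 112 and 156 CPM (log2 ratio 1.52, SE 0.10). Efnb2, known from arteries and from synapses, was highest in the Lmo3 and Slc30a3 area at 75.9 to 92.7 CPM (1.27, SE 0.08), and was called in the cortical areas led by Tshz2 and Lamp5 (62.0 to 104 CPM; 1.198, SE 0.11) and by Ccn2 and Nr4a2 (67.9 to 101 CPM; 1.07, SE 0.14). Efna1 was at 22.0 to 27.5 CPM in the meninges (1.26, SE 0.17) and 20.4 to 25.2 CPM in the white matter (1.30, SE 0.12), and these ranges overlapped. Efna2 and Efnb1 were called in no area, with highest means of 14.7 CPM in the DG area and 28.3 CPM in the meninges.

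The neuropilins were high in different places. Nrp2 was at 199.7 and 228 CPM in the choroid plexus area of the MF sections and 212 and 188 CPM in that of the HF sections (log2 ratio 2.43, SE 0.08). Among other areas, it was called in the habenula (100 to 140 CPM; 1.52, SE 0.11) and the DG area (97.8 to 130 CPM; 1.42, SE 0.08). The lowest mean of Nrp2 was 13.9 CPM, in layer 5.

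Nrp1 was highest in the CA2-3 area, at 76.5 and 77.6 CPM in MF and 124 and 56.9 CPM in HF (log2 ratio 2.21, SE 0.12). In the DG area Nrp1 was at 54.3, 67.8, 103 and 37.7 CPM (1.56, SE 0.09). HF replicate 1 was the highest and HF replicate 2 the lowest section in both areas, so the HF sections of Nrp1 differed from each other more than the MF sections did. The CA2-3 call of Nrp1 held with any 1 of the 4 sections left out.

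The secreted class 3 semaphorins, the ligands of neuropilins, were high in different areas. Sema3c was at 109.8, 128, 128 and 149 CPM in the DG area (log2 ratio 2.33, SE 0.09). Sema3e, which binds Plxnd1 without a neuropilin, was at 119, 141, 154 and 164 CPM in the CA1 area (2.27, SE 0.12) and at 105 to 116 CPM in the CA2-3 area (1.98, SE 0.12), and it was called in the thalamic reticular area (77.2 to 135 CPM; 1.51, SE 0.12). Sema3a, a classical repellent, was at 65.8, 74.2, 73.4 and 56.9 CPM in cortical layers 2-3 (1.80, SE 0.11).

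Sema3a was called in 5 more areas, namely layer 4 (54.7 to 78.8 CPM; log2 ratio 1.65, SE 0.11), the area led by Cyp26b1 and Lypd1 (46.0 to 84.0 CPM; 1.48, SE 0.17), the Lmo3 and Slc30a3 area (1.203, SE 0.12), the striatum (38.6 to 51.4 CPM; 1.14, SE 0.13) and the area led by Trbc2 and Nxph3 (30.5 to 45.7 CPM; 1.02, SE 0.11). The call of Sema3a in the last of these fell just under 2-fold without MF replicate 1 (0.97). Its lowest mean was 5.72 CPM, in the CA2-3 area. Sema3f was highest in the striatum at 20.0 to 26.9 CPM (1.30, SE 0.16).

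Sema3b, Sema3d and Sema3g were highest in the choroid plexus area, the white matter and the meninges. Sema3b was at 44.0, 39.8, 45.1 and 56.6 CPM in the choroid plexus area (log2 ratio 4.65, SE 0.19), at 7.80 to 22.0 CPM in the meninges (2.82, SE 0.27) and at 6.69 to 14.0 CPM in the ependyma (2.25, SE 0.31). Sema3g, known from arterial endothelium, was at 55.5 and 49.0 CPM in the meninges of the MF sections and 34.2 and 39.0 CPM in those of the HF sections (3.13, SE 0.16). Sema3d was at 23.7, 30.2, 43.6 and 15.8 CPM in the white matter (1.84, SE 0.11).

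The membrane-bound semaphorins were high in white matter, hippocampus, cortex and thalamus. Sema6a was at 332, 406, 411 and 394 CPM in the white matter (log2 ratio 2.02, SE 0.06), at 208 to 340 CPM in the ependyma (1.30, SE 0.08) and at 205 to 278 CPM in the thalamic reticular area (1.22, SE 0.08). Sema6c was at 52.8 to 69.6 CPM in the CA1 area (1.37, SE 0.13). Sema5a was at 261, 339, 361 and 418 CPM in the DG area (2.10, SE 0.06), its single call, and Sema5b, of the same class, was called in the cortical areas led by Ccn2 and Nr4a2 (20.2 to 46.8 CPM; 1.44, SE 0.21) and by Trbc2 and Nxph3 (32.9 to 39.2 CPM; 1.40, SE 0.11) and in CA2-3 (24.0 to 31.5 CPM; 1.17, SE 0.19).

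Sema4g was highest in the thalamus, at 89.3, 94.9, 96.7 and 96.0 CPM in the relay area (log2 ratio 1.46, SE 0.05) and 73.7 to 89.7 CPM in the midline area (1.21, SE 0.11). Sema7a, which is held to the membrane by a lipid anchor, was at 345, 352, 379 and 263 CPM in layer 4 (1.19, SE 0.06) and at 317, 336, 368 and 238 CPM in the thalamic reticular area (1.02, SE 0.08). HF replicate 2 was the lowest section for Sema7a in both areas. Sema4c was at 15.2 to 20.0 CPM in the white matter (1.07, SE 0.13). Sema4d had its highest level in the white matter in all 4 sections (94.1 CPM ± 6.02, SD, n = 4) but stayed under 2-fold (0.81), and Sema4a, Sema4b, Sema4f, Sema6b and Sema6d were called in no area.

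Of the plexins, Plxnb3, known from oligodendrocytes, was at 125, 173, 162 and 143 CPM in the white matter (log2 ratio 2.20, SE 0.07), at 75.9 to 101 CPM in the thalamic reticular area (1.29, SE 0.12) and at 38.6 to 115 CPM in the ependyma (1.26, SE 0.12). The ependymal call of Plxnb3 was lost without MF replicate 1 (0.95). Plxnd1 was at 221, 233, 217 and 264 CPM in the Lmo3 and Slc30a3 area (1.78, SE 0.07), at 177 to 208 CPM in layer 4 (1.51, SE 0.07) and at 158 to 172 CPM in layers 2-3 (1.27, SE 0.08).

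Plxnd1 was also called in the area led by Reln and Ndnf (110.4 to 164 CPM; log2 ratio 1.03, SE 0.10), a call that was lost without MF replicate 1 (0.97). Of the A-type plexins, Plxna1 and Plxna4 were both called in the pyramidal areas of the hippocampus. Plxna1 was at 225, 275, 294 and 269.8 CPM in the CA1 area (1.64, SE 0.08) and at 204 to 259 CPM in the CA2-3 area (1.52, SE 0.07). Plxna4 was at 243, 295, 282 and 345 CPM in the DG area (1.69, SE 0.06), at 173 to 230 CPM in the CA1 area (1.25, SE 0.08) and at 155 to 164 CPM in the CA2-3 area (1.04, SE 0.08). Plxnb2 was highest in the choroid plexus area, at 149 to 246 CPM (1.51, SE 0.08), where Plxnc1, the receptor of Sema7a, was at 90.7, 126, 107 and 71.3 CPM (1.15, SE 0.11). Plxna2, Plxna3 and Plxnb1 were called in no area, with highest log2 ratios of 0.90, 0.86 and 0.86.

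The guidance genes were also compared with each other over the areas. Over 1378 pairs of guidance genes, Spearman's rho over the 25 areas had a median of 0.012, and the highest was that of Plxnb3 with Sema6a at 0.952. The lowest, -0.822, was that of Plxnd1 with Sema5a. Against the summed level of 12 oligodendrocyte markers, rho was 0.962 for Plxnb3, 0.928 for Sema6a, 0.89 for Sema3d, 0.746 for Ephb1 and 0.648 for Efnb3. Against 6 markers of oligodendrocyte precursors it was 0.946 for Plxnb3, 0.92 for Sema6a, 0.91 for Sema3d, 0.626 for Ephb1 and 0.711 for Efnb3, so these values do not tell the marker lists apart. Against meningeal fibroblast markers it was 0.908 for Plxnb1, and against endothelial markers 0.875 for Epha2. Plxnb1 also stood at 0.792 against precursor markers and 0.79 against endothelial markers. Epha2 stood at 0.831 against blood and immune markers and 0.748 against fibroblast markers, so neither gene is tied to 1 list. These values describe 25 areas whose spots share libraries and neighbours, and no test was made on them.

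Ligands and receptors were next compared over areas, to see where a ligand and its known receptor were high together. Of 24 pairs of known partners, rho over the 25 areas was above 0 for 8 and below 0 for 16. Their median was -0.305, against -0.017 over all 700 combinations of a ligand and a receptor. Some genes, such as Efna5 and Epha4, stand in several of the pairs, so the 24 values are not independent of each other. In 20 of 24 pairs the sign was the same in each of the 4 sections taken alone.

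The highest values were those of Efna1 with Epha2 (0.813; 0.265 to 0.566 by section), Sema4d with Plxnb1 (0.775; 0.501 to 0.735) and Efna3 with Epha4 (0.669; 0.657 to 0.702). Efna1 and Epha2 were both highest in the meninges at low levels. Efna3 was highest in the CA1 area, its single call, and Epha4 in the CA2-3 area, with a call in the CA1 area too. The lowest were those of Sema7a with Plxnc1 (-0.758; -0.811 to -0.625), Sema6a with Plxna4 (-0.736; -0.773 to -0.402) and Sema3a with Nrp1 (-0.647; -0.703 to -0.5). Sema3a was lowest in the CA2-3 area, where Nrp1 was highest, and Efna5 with Epha7 stood at -0.583. Of the ligands of Plxnb3, Sema5a stood at 0.47 and Sema4a at 0.068.

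**Figure D3:**
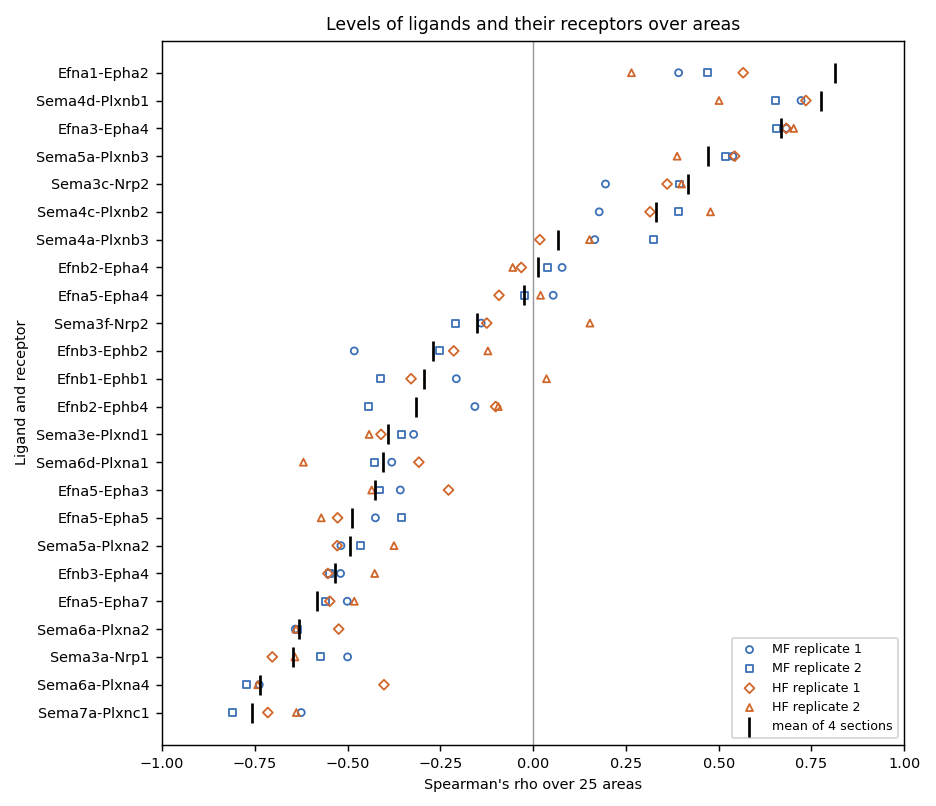
Spearman's rho over 25 areas between the level of a ligand and that of its receptor, for 24 pairs; open symbols are single sections (MF blue, HF orange) and the black bar is rho of the mean over 4 sections. Of the black bars 8 lie above 0 and 16 below, and Sema7a with Plxnc1 is the lowest.

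Sema7a and Plxnc1 were high in different areas. In the CA1 area Plxnc1 had its lowest mean (16.4 CPM) and Sema7a stood at 223 CPM. In the thalamic reticular area, called for Sema7a, Plxnc1 was at 18.1 to 28.7 CPM. In the choroid plexus area, where Plxnc1 was highest, Sema7a was at 60.9 to 107 CPM. A hypothalamic area of the arcuate and periventricular zone had 261, 145 and 122 spots but 13 in HF replicate 2. It was left out of the comparison of areas, and its spots were counted with the hypothalamus when the diets were compared.

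**Figure D4:**
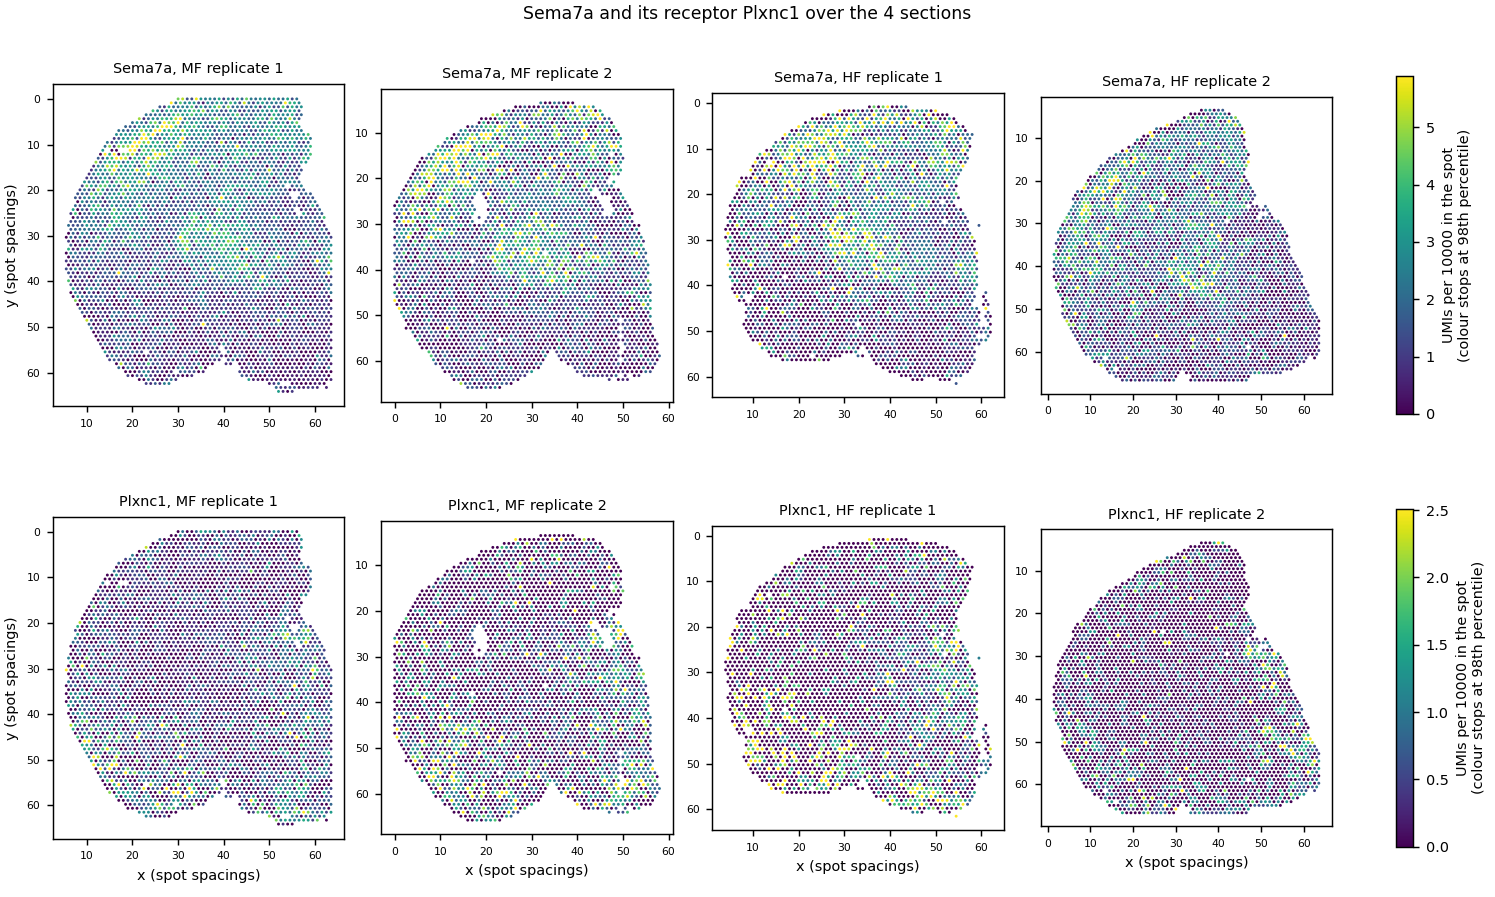
Level of Sema7a (upper row) and Plxnc1 (lower row) at each spot of the 4 sections, as UMIs per 10000 UMIs of the spot, with x and y in spot spacings; the colour stops at the 98th percentile over all sections. Sema7a is bright in the cortex and dim in the hypothalamus, and the lower part of the section that is bright for Plxnc1 is smaller in HF replicate 2.

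The HF and MF sections were then compared, which asks whether the higher maternal FA dose altered these genes in the offspring. UMIs were summed over each section, so n was 2 against 2. A call required an adjusted p under 0.05 over all features and at least a 1.2-fold change. None of the 53 guidance genes was called over the whole section, and 0 of all 14971 features (0%) was. At an unadjusted p under 0.05 there were 5 guidance genes and 1020 of all features (6.81%), and DESeq2 called 0 guidance genes and 22 features. The median log2 fold change of HF over MF was 0.02 over the guidance genes, with 28 above 0 and 25 below. The lowest adjusted p of a guidance gene was 0.696.

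The sections of the 2 diets did not overlap for 13 genes that were higher in HF and 4 that were lower, where 21.8% and 17.9% of all features did so. Epha1, highest in the thalamus, had the largest positive change, at 2.15 and 2.15 CPM in MF and 3.54 and 2.78 CPM in HF (log2 fold change 0.54, SE 0.18, adjusted p = 0.696, edgeR quasi-likelihood test). Epha8 was at 9.001 and 9.71 CPM in MF and 12.7 and 12.5 CPM in HF (0.42, SE 0.11), and Ephb2, a receptor of B-type ephrins at a low level, at 3.03 and 2.73 CPM against 3.23 and 3.81 CPM (0.28, SE 0.17). In each of these 3 genes both HF sections lay above both MF sections.

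In the other direction Sema3g was at 7.08 and 6.86 CPM in MF and 5.72 and 5.36 CPM in HF (log2 fold change -0.34, SE 0.12), Efnb3 at 170.1 and 177 CPM against 150.4 and 138 CPM (-0.28, SE 0.08) and Sema4c at 10.6 and 9.57 CPM against 9.46 and 8.26 CPM (-0.20). Both HF sections of each lay below both MF sections. The HF sections differed from each other more than the MF sections, with a median absolute log2 difference between replicates of 0.183 over the guidance genes in HF and 0.0804 in MF (all features 0.149 and 0.0712).

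Nrp1 showed that spread most plainly. It was at 20.3 and 22.4 CPM in MF but at 33.2 CPM in HF replicate 1 and 15.997 CPM in HF replicate 2, so the HF sections lay on either side of MF (log2 fold change 0.19, SE 0.30). Without HF replicate 1 the change of Nrp1 was -0.40 and without HF replicate 2 it was 0.62. Plxnc1 behaved alike, at 45.3 and 52.9 CPM in MF and 57.4 and 38.5 CPM in HF (-0.04, SE 0.18).

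**Figure D5:**
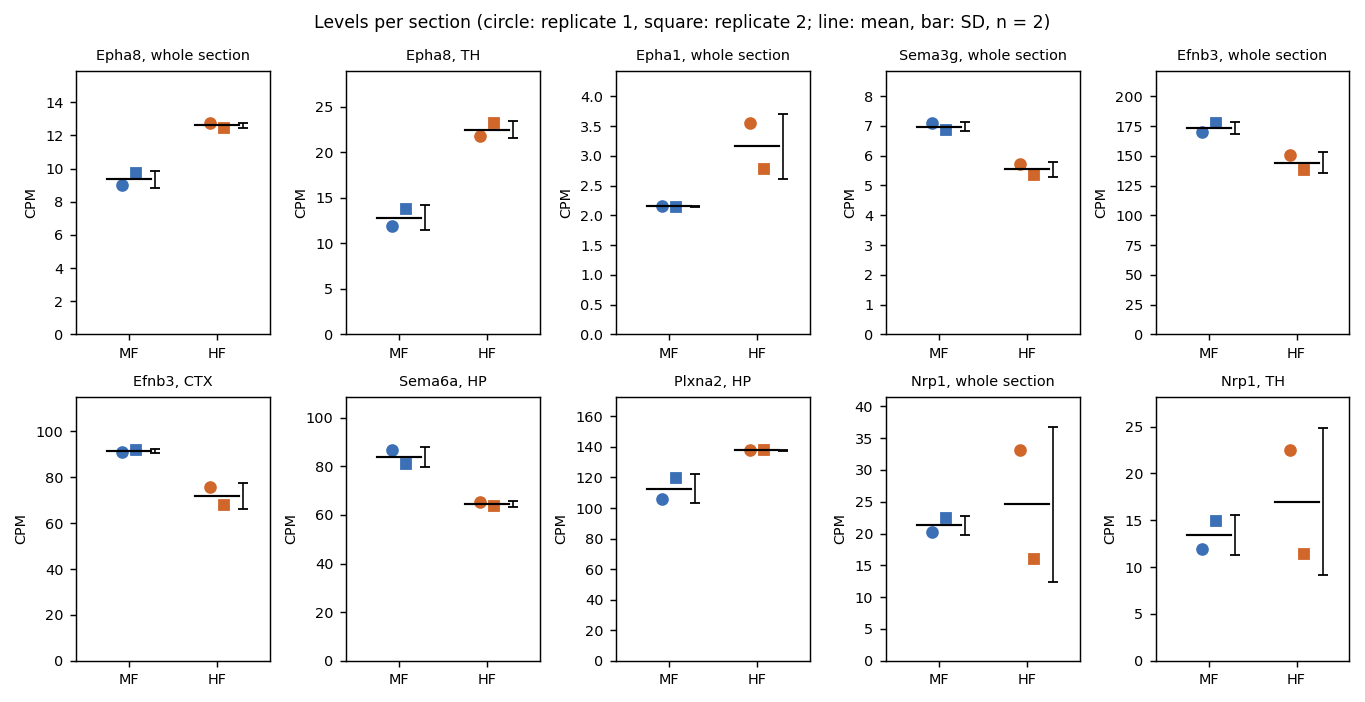
Level in CPM of 7 guidance genes per section over the whole section or in a region (CTX cortex, HP hippocampus, TH thalamus), MF blue and HF orange, with circles for replicate 1, squares for replicate 2, lines for the mean and bars for the SD (n = 2). Both HF sections of Epha8 lie above MF, both of Efnb3 below, and those of Nrp1 on either side; none was called.

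The guidance genes tested numbered 51 in the cortex and the hypothalamus, 52 in the hippocampus and the white matter, 53 in the thalamus and 46 in the striatum. Within the 6 regions, 0 guidance genes were called in the cortex (all features 0.19%), hippocampus (0.313%), thalamus (0%), hypothalamus (0%), striatum (0.0447%) or white matter (0.00819%). DESeq2 called 0 of them in each. At an unadjusted p under 0.05 there were 3 in the cortex (all features 8.21%), 7 each in the hippocampus and the thalamus (8.98% and 5.57%), 3 in the hypothalamus (7.07%) and 2 each in the striatum and the white matter (6.33% and 4.91%). In the hippocampus, 14 guidance genes were higher in HF without overlap and 9 lower, where 17.6% and 21.2% of all features did so. In the cortex 7 were higher and 13 lower (all features 16.0% and 21.0%), and in the hypothalamus 15 were higher and 5 lower (21.1% and 17.4%). The thalamus had 10 higher and 8 lower (20.2% and 16.3%), the striatum 6 and 7 (18.0% and 17.0%) and the white matter 5 and 3 (18.5% and 15.6%).

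The hypothalamus was made up of its areas in unequal shares. The arcuate and periventricular area gave 261 of 621 and 145 of 511 hypothalamic spots in the MF sections and 122 of 516 and 13 of 433 in the HF sections. The lateral area gave 171 and 207 spots in MF and 276 and 346 in HF, so HF sections held more of it and fewer arcuate spots. Within the lateral area alone, a choice made after seeing the data, 12 guidance genes were higher in HF without overlap and 6 lower (all features 22.0% and 14.1%).

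Epha8 had the largest positive change in the thalamus, at 11.9 and 13.8 CPM in MF and 21.9 and 23.2 CPM in HF (log2 fold change 0.81, SE 0.14, adjusted p = 0.6, edgeR quasi-likelihood test). Within the relay area alone Epha8 was at 12.9 and 14.1 CPM in MF and 22.3 and 29.2 CPM in HF. That area pooled clusters in unequal shares. Its cluster led by Prkcd and Tnnt1 held 306 and 297 spots in MF and 192 and 208 in HF. Another held 104 and 162 against 362 and 64, and the last 230 and 131 against 13 and 209. The part of this mix in the values was not tested. In the hypothalamus it was at 5.33 and 5.67 CPM against 7.52 and 10.4 CPM (0.70, SE 0.26), and within the lateral hypothalamic area at 6.01 and 4.43 CPM against 8.60 and 9.56 CPM. In the hippocampus it was at 11.3 and 9.21 CPM against 7.29 and 9.41 CPM (-0.30, SE 0.24), where the groups overlapped. The adjusted p of Epha8 in the thalamus was 0.0458 when no filter on low counts was used (edgeR quasi-likelihood test). It was 0.000224 with a crossed replicate block, chosen after seeing the data, which sets MF replicate 1 beside HF replicate 2. In these fits 0.104% and 0.87% of all features were called in the thalamus. Epha8 was not called there with DESeq2, library size alone, thinned spots, a block by replicate number, or coarser or finer areas. It was also not called there when either MF section was left out.

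Epha1 was at 5.01 and 4.95 CPM in the thalamus of MF and 8.25 and 7.69 CPM in HF (log2 fold change 0.67, SE 0.19). The midline thalamic area, where Epha1 was highest, held 25 and 33 spots in MF and 26 and 49 in HF. Within the relay area, with its unequal mix of clusters, Epha1 was at 4.70 and 4.02 CPM in MF and 6.86 and 7.38 CPM in HF. Sema3g was lower in the thalamus of HF, at 4.56 and 4.64 CPM against 7.82 and 7.04 CPM (-0.71, SE 0.20). Neither was called.

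Efnb3 had a fitted change below 0 in 6 of 6 regions, without overlap in 5 of them. These regions were parts of the same sections, so they are not separate comparisons. The share of all features with such a pattern was not counted. In the cortex it was at 90.8 and 92.0 CPM in MF and 75.9 and 67.7 CPM in HF (log2 fold change -0.34, SE 0.09, adjusted p = 0.247, edgeR quasi-likelihood test). In the hippocampus it was at 165 and 171 CPM against 145 and 134 CPM (-0.26, SE 0.09), and in the white matter, its highest region, the groups overlapped at 355 and 407 CPM against 365 and 324 CPM (-0.16, SE 0.13). Sema6a, also highest in the white matter, was at 86.8 and 81.1 CPM in the hippocampus of MF and 65.3 and 63.5 CPM in that of HF (-0.38, SE 0.10, adjusted p = 0.24).

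Oligodendrocyte markers were read beside these genes. The summed level of 12 oligodendrocyte markers was 26380 and 27556 CPM over the MF sections and 21868 and 23463 CPM over the HF sections, with 12 of 12 below 0 and 0 called. In the hippocampus it was 16063 and 15515 CPM in MF and 11013 and 10552 CPM in HF, with 10 of 12 called lower, and in the cortex 12843 and 12742 CPM against 10828 and 9628.8 CPM, with 2 called lower. In the white matter it was 83056 and 98661 CPM against 89822 and 81892 CPM. In the thalamus it was 31531 and 32253 CPM in MF against 24863 and 29296 CPM in HF. In the striatum it was 33048 and 30339 CPM against 27594 and 26174 CPM. In both of these regions 12 of 12 markers were below 0 with 0 called, and Efnb3 was lower without overlap. In the hypothalamus, where Efnb3 was also lower without overlap, the sum was 17205 and 16557 CPM against 17694 and 16076 CPM, with 5 of 12 above 0. None of the 12 markers was at 0. The part of oligodendrocytes in the values of Efnb3 and Sema6a was not tested.

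Vessel and border markers were read in the same way. Over the whole section the summed level of 10 meningeal fibroblast markers was 175.72 and 165.59 CPM in MF and 231.46 and 127.39 CPM in HF, and that of 9 endothelial markers was 403.62 and 429.39 CPM in MF and 485.56 and 403.77 CPM in HF, and in both lists the diets overlapped. In the hippocampus the fibroblast sum was lower in both HF sections, at 160.37 and 94.343 CPM against 172.19 and 161.35 CPM, with 9 of 10 markers below 0. In the hypothalamus the endothelial sum was higher in both, at 516.33 and 408.21 CPM against 371.92 and 403.41 CPM, with 9 of 9 above 0. In the thalamus, where Sema3g was lower in HF, the endothelial sum was 414.48 and 424.3 CPM in MF and 469.93 and 415.43 CPM in HF. Their part in the values of Sema3g was not tested.

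Of the 14 genes higher in the hippocampus of HF without overlap, Plxna2 and Epha7 are given here, and neither was called. Plxna2, a receptor of Sema6a and Sema5a, was at 106 and 119 CPM in MF and 138 and 138 CPM in HF (log2 fold change 0.31, adjusted p = 0.32, edgeR quasi-likelihood test). Epha7 was at 262 and 289 CPM against 315 and 332 CPM (0.25, SE 0.09). Its HF sections lay above MF in the cortex, hypothalamus and striatum too, which are parts of the same sections. Plxnb1 was lower in the striatum of HF, at 49.0 and 50.9 CPM against 66.2 and 74.4 CPM (-0.46, adjusted p = 0.704).

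Whether the diets differed between regions was tested by terms of region by diet over the 6 regions. None of the 53 guidance genes passed, while 4 of 13841 features (0.0289%) did, and 7 guidance genes had an unadjusted p under 0.05 (6.52% of all features). The lowest adjusted p was that of Epha8 (adjusted p = 0.328, edgeR quasi-likelihood test), followed by Sema6c (adjusted p = 0.378) and Sema5a (adjusted p = 0.474). Sema6c was at 26.6 and 21.5 CPM in the hypothalamus of MF and 33.3 and 31.0 CPM in that of HF (log2 fold change 0.40, SE 0.15), and within the lateral area at 27.0 and 21.0 CPM against 32.2 and 32.5 CPM. It was at 22.6 and 22.0 CPM against 17.0 and 13.2 CPM in the white matter (-0.62, SE 0.22). These regions gave opposite signs, and the difference between them did not pass the adjustment. In all, 12 of the 53 guidance genes had sections that did not overlap in opposite directions in different regions, where 19.5% of all features did so.

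Other genes of the pathway were compared in the same way. Of 43 cytoplasmic and membrane partners of plexins, neuropilins and Eph receptors, 0 were called over the whole section, 25 lay above 0 and 18 below, with a median log2 fold change of 0.05. Dpysl5, of the collapsin response mediator family that carries semaphorin signals, was at 67.2 and 69.5 CPM in MF and 80.4 and 77.4 CPM in HF (0.20, SE 0.07), and the adaptor Nck1 was at 3.02 and 2.62 CPM against 3.23 and 1.29 CPM (-0.36, SE 0.38). Of 32 other guidance ligands and receptors, such as Slit, Robo, netrin and Unc5 genes, 0 were called, 16 lay above 0 and 16 below. Draxin, a secreted ligand of the netrin receptor Dcc, was at 1.33 and 1.74 CPM against 1.92 and 1.88 CPM (0.32, SE 0.21).

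The single call among these lists over all places tested was Itgb1, the integrin that serves as a receptor of Sema7a, which was lower in the hippocampus of HF at 40.1 and 33.9 CPM against 59.9 and 57.0 CPM in MF (log2 fold change -0.67, SE 0.13, adjusted p = 0.0492, edgeR quasi-likelihood test). The call was lost without MF replicate 1 (adjusted p = 0.397), without MF replicate 2 (0.0756), with DESeq2 (0.319), with the replicate block (0.151), with spots thinned to 5000 UMIs (0.274) and with coarser or finer areas (0.114 and 0.0512), and it was kept without either HF section. The log2 fold change lay between -0.77 and -0.55 in all of these fits. Over the whole section Itgb1 was at 74.5 and 70.7 CPM against 67.6 and 52.6 CPM (-0.29, SE 0.12), and it was not called.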

How the data were processed

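The 4 Visium-FFPE sections comprised 2 from MF and 2 from HF. Per the labels and the study's methods, the authors aligned probe reads to mm10 with Space Ranger 2.0.0. As deposited, the counts are whole UMIs of each feature at each spot, without normalization, and Moran's I is a score that Space Ranger gives per feature and section.

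UMI counts were scaled to CPM and log-transformed, and spots were clustered by the Leiden method (scikit-learn 1.9.0 for components and neighbours, then igraph 0.11.9 and leidenalg 0.10.2, resolution 1.5) without the guidance genes and the pathway lists. Counts were summed per section and area, and tested in R 4.3.3 by edgeR 4.0.16, quasi-likelihood, after TMM and filterByExpr, adjusted by Benjamini-Hochberg over all features. Log2 ratios and log2 fold changes come from these fits. The study's own test over single spots treats spots as replicates and was not used. For a single value, 2 against 2 sections allow no exact permutation p below 0.333. Section totals of 34983708 to 90098381 UMIs limit the precision most for genes of a few CPM. In the comparison of diets the precision also rests on the spread between 2 sections per diet. The script for these fits was tested on simulated data.

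Values per section are given for up to 3 genes called in each area, the 3 largest changes between the diets in each direction, the members of ligand and receptor pairs, and any pathway gene called with the 2 largest changes in each direction. Other genes with values were chosen after their values were seen. The guidance genes and all lists were chosen with earlier results of these data known. Alternatives were DESeq2 1.42.0, library size alone, no filter, spots thinned to 5000 UMIs, Leiden at resolutions 1 and 2.5, a replicate block and leaving out each section. Promoter windows are from RefSeq. Results of some areas are not reported here.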

Additional observations from a re-analysis of the deposited data

How the results depend on the processing

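The count of guidance genes called in at least 1 area was 40, and it lay between 38 and 42 under every alternative run (39 to 41 with 1 section left out). Of 540 alternative values of the area ratios given, 529 kept their direction and call, and 11 fell below the threshold. Pairs with rho above 0 numbered 8, and 6 to 8 with 1 section left out. Over the whole section the count called between diets was 0 and ranged from 0 to 7 with 1 section left out (7 without HF replicate 1 and 4 without HF replicate 2, where 7.68% and 5.55% of all features were called). Over the regions it was 0 and ranged from 0 to 20 (20 without HF replicate 1, where 0.575% to 7.31% of all features were called by region, and 15 without HF replicate 2, where 0.155% to 9.93% were), and it was 1 with no filter, Epha8 in the thalamus. Each of these fits leaves 1 section in a group, which is assumed to vary like the other group, and the HF sections differed more from each other than the MF sections did. Epha8 alone was called with the same sign without either HF section, over the whole section (0.42 and 0.43) and in the thalamus (0.86 and 0.78). It was called in neither place when an MF section was left out. With any 1 section left out, its log2 fold change lay between 0.37 and 0.47 over the whole section. In the thalamus it lay between 0.69 and 0.91. Nrp1 reversed without HF replicate 1, to -0.40 over the whole section (adjusted p = 0.0196, edgeR quasi-likelihood test), -0.44 in the hippocampus and -0.21 in the thalamus, and without HF replicate 2 it was 0.62, 0.80 and 0.77. The region by diet terms called 0 guidance genes, and 2 with no filter (Epha8 and Sema6c). The share of all features that these terms called with no filter is not given here, so the 2 calls cannot be set against it. For the pathway lists the count was 1, and it was 0 with DESeq2 and 0 to 30 with 1 section left out. The cause of these shifts was not tested. With no filter, 128 features were called in the cortex and 164 in the hippocampus, against 25 and 39.

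Replicate numbers 1 and 2 occur in both groups, but nothing ties sections of the same number together, and the deviations of same-numbered sections correlated at -0.165 over 14971 genes. With the replicate block, 0 guidance genes were called over the whole section and 0 in the regions, and the pathway lists had 0 calls instead of 1 (Itgb1, adjusted p = 0.151). Features called with the replicate block numbered 92 for cortex, 7 for hippocampus, 12 for thalamus, 6 for hypothalamus and 14 for white matter, against 25, 39, 0, 0 and 1. A crossed replicate block, chosen after seeing the data, called 1 guidance gene over the regions (Epha8 in the thalamus, adjusted p = 0.000224, edgeR quasi-likelihood test) and 1 pathway gene. With it, 117 features (0.87%) were called in the thalamus, 102 (0.774%) in the cortex, 88 (0.706%) in the hippocampus and 11 over the whole section.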

Other observations

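The hypothalamic area of the arcuate and periventricular zone was left out of the comparison of areas because HF replicate 2 held 13 of its spots. Plxnc1 was at 68.6 and 99.0 CPM there in the MF sections and at 122 and 105 CPM in the HF sections. Sema7a was at 58.9 and 53.0 CPM in the MF sections and at 48.3 and 105 CPM in the HF sections, the last of these resting on the 13 spots. In each of the other 3 sections Plxnc1 was higher in this area than over its whole section, where it was at 45.3, 52.9 and 57.4 CPM.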
